A study of Mus musculus with 12 samples.

Results

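Of the 13 proteins encoded by the mitochondrial genome, 6 belong to respiratory complexes III, IV and V, and the transcripts of these 6 genes were followed in the hearts of mice that carry an expanded GGC repeat. The genes were taken by symbol from the count table, where all 6 were present among 25171 rows: mt-Cytb of complex III, mt-Co1, mt-Co2 and mt-Co3 of complex IV, and mt-Atp6 and mt-Atp8 of complex V. The other 7 mt- rows of the table are the subunits of complex I. Neither mitochondrial rRNA nor any of the 22 annotated mitochondrial tRNA genes was listed, and the 10 nuclear copies of mitochondrial genes that were looked for were not listed either.

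Heart RNA of 12 mice was measured, 3 in each of 4 groups. The mice were bred from homozygous carriers of a conditional Rosa26 transgene with 98 GGC repeats in NOTCH2NLC behind a loxP-flanked stop. EIIa-tg mice also carried EIIa-Cre (E2a-Cre in the labels), which removes the stop in all tissues from the embryo on, and EIIa-ctl mice were littermates without the Cre. Both groups were sampled at postnatal day 30. Myh6-tg and Myh6-ctl mice were both labelled with the same genotype, in which the alpha-myosin heavy chain promoter drives a tamoxifen-inducible Cre (Myh6-creERT2) in cardiomyocytes. From postnatal day 60 the Myh6-tg mice received 3 injections of tamoxifen at 75 mg per kg and the Myh6-ctl mice 3 injections of corn oil, with sampling at postnatal day 90. The models therefore differ in age, Cre line and drug at the same time, and these cannot be told apart in any difference between them. Tamoxifen itself and the repeat that it switches on cannot be told apart within the Myh6 model either. The Myh6 groups also differed in the counts of Esr1, given below, and whatever lies behind that difference cannot be told apart from the other 2. The transgene was not among the genes of the table. The sampled tissue was the whole heart, in which fewer cells of a type and less RNA per cell cannot be told apart.

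Several facts about the samples bear on what follows. Totals ranged from 38343106 to 50969834 counts per heart. Esr1, the gene of the estrogen receptor whose ligand-binding part is used in creERT2, had between 53433 and 103037 counts in the 3 hearts labelled Myh6-ctl, between 53 and 116 in those labelled Myh6-tg and between 15 and 54 in the EIIa hearts, although the labels give the Myh6 groups the same genotype. The part of this difference in the results below was not tested, and the library labels were kept. Sqstm1, which encodes the p62 protein, was higher in EIIa-tg (log2 fold change 1.52, SE 0.18, adjusted p = 0.0135) and in Myh6-tg (1.54, SE 0.31, adjusted p = 0.0166). Y-linked counts were 4224 to 7307 in replicate 1 of every group and at most 2 in replicates 2 and 3. The extraction text in the labels speaks of brain tissue, but the 10 cardiomyocyte markers summed to 14593 to 43080 CPM (counts scaled to the library total alone, without TMM factors, unless TMM is named) and the 8 brain markers to at most 42.5 CPM.

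The respiratory chain sits in the inner mitochondrial membrane. Complex III passes electrons from ubiquinol to cytochrome c, complex IV passes them on to oxygen, and complex V, the ATP synthase, uses the proton gradient that results to make ATP. Each of these complexes combines a few core subunits that are transcribed and translated inside the mitochondrion with many subunits imported from the cytosol, so mitochondrial and nuclear genes have to be expressed together. Mitochondrial genes are transcribed as long polycistronic RNAs that are cut into single mRNAs, mostly at the tRNAs that lie between them. Heart muscle is packed with mitochondria, and their mRNAs make up a large share of its RNA.

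The 6 genes lie on the plus strand of the mitochondrial genome (GRCm38, GENCODE M21 annotation) and each is a single coding exon. mt-Co1 spans chrM:5328-6872, mt-Co2 chrM:7013-7696, mt-Atp8 chrM:7766-7969, mt-Atp6 chrM:7927-8607, mt-Co3 chrM:8607-9390 and mt-Cytb chrM:14145-15288. mt-Atp8, mt-Atp6 and mt-Co3 follow each other with no tRNA between them, and they are shown here because reads in their overlaps cannot be given to one gene alone. mt-Atp8 and mt-Atp6 share 43 bases, which are 21.1% of the annotated length of mt-Atp8 and 6.31% of that of mt-Atp6. mt-Atp6 and mt-Co3 share 1 base. In the sequences below, read from the GENCODE transcripts of the plus strand, capitals mark the shared bases. The whole mt-Atp8 gene comes first, then the start of mt-Atp6 (chrM:7927-7986), and then the end of mt-Atp6 running into the start of mt-Co3 (chrM:8578-8636).
mt-Atp8: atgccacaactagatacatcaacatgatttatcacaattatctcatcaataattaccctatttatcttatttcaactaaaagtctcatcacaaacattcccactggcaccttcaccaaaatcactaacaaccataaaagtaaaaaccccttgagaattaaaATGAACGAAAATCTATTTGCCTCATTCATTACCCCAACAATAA
mt-Atp6 start: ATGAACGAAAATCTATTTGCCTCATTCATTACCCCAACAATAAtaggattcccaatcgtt
mt-Atp6 to mt-Co3: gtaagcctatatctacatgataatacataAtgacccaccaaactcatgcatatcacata

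The 6 transcripts together took 24.0%, 22.6% and 22.6% of all gene counts in the EIIa-ctl hearts and 21.1%, 21.8% and 19.1% in the EIIa-tg hearts. They took 24.9%, 25.04% and 21.7% in Myh6-ctl and 11.5%, 12.04% and 10.01% in Myh6-tg. The 3 Myh6-tg hearts were thus well below the other 9, while the EIIa-tg hearts were just below their controls. Counts outside the mt- rows numbered 29186914 to 34713136 in Myh6-ctl and 31221290 to 35358023 in Myh6-tg. They include NewGene_1278, a locus of unknown position described below.

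**Figure D1:**
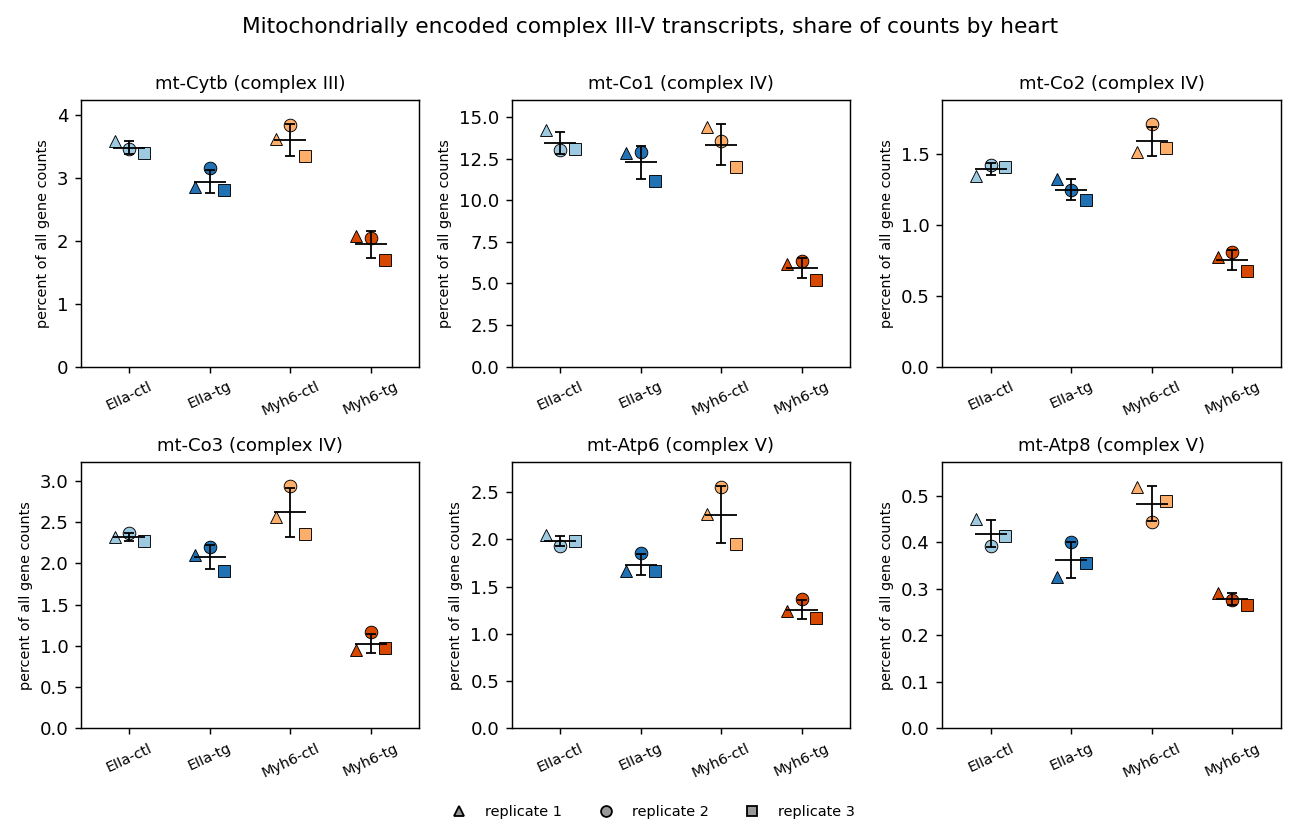
Share of all gene counts (percent, vertical axis from 0) taken by each of the 6 transcripts in each of the 12 hearts, with 1 panel for a gene. Symbols are hearts, horizontal lines and bars are the mean and SD of 3 hearts. In Myh6-tg all 3 hearts sat below every other heart in all 6 panels, and in EIIa-tg the hearts sat below their controls for each gene but mt-Atp8, where 1 EIIa-tg heart (0.402%) passed 1 control (0.391%). The portion of all genes without overlap was not computed on this scale.

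Cytochrome b, the product of mt-Cytb, holds the b-type hemes and the quinol-binding sites of complex III and is its sole subunit made in the mitochondrion. mt-Cytb took 3.59%, 3.46% and 3.39% of counts in EIIa-ctl and 2.86%, 3.16% and 2.80% in EIIa-tg. It took 3.62%, 3.83% and 3.34% in Myh6-ctl and 2.08%, 2.05% and 1.70% in Myh6-tg. The groups did not overlap in either model. For shares of counts, here and for the genes below, the portion of all genes without overlap was not computed. On TMM-scaled values every transgenic heart lay below every control for 20.7% of all genes in EIIa and 19.7% in Myh6. After TMM scaling, which adjusts for differences in composition between libraries, the fitted log2 fold change in the 6 hearts of a model was -0.44 in EIIa (SE 0.24, edgeR quasi-likelihood test with Benjamini-Hochberg adjustment, adjusted p = 0.223) and -1.29 in Myh6 (SE 0.38, adjusted p = 0.0508). Neither value passed an adjusted p of 0.05. With the replicate number as a block (same-numbered Myh6 hearts deviated together), mt-Cytb was called lower in Myh6-tg (log2 fold change -1.29, adjusted p = 0.0165, edgeR). It was called in 5 of the 20 alternative fits of the Myh6 comparison, and in 0 of the 6 that left out a heart.

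mt-Co1, mt-Co2 and mt-Co3 encode the core of complex IV. The mt-Co1 protein carries heme a, heme a3 and a copper site where oxygen is reduced, the mt-Co2 protein takes electrons from cytochrome c, and the mt-Co3 protein is a core subunit without a redox metal. mt-Co1 had the most counts of the 6, with 14.2%, 13.04% and 13.1% of counts in EIIa-ctl and 12.8%, 12.9% and 11.1% in EIIa-tg. It held 14.4%, 13.6% and 12.02% in Myh6-ctl against 6.19%, 6.37% and 5.24% in Myh6-tg. Myh6-ctl replicate 3 was the lowest control and still stood far above the highest Myh6-tg heart. The fitted log2 fold change of mt-Co1 was -0.32 in EIIa (SE 0.33, adjusted p = 0.520, edgeR) and -1.57 in Myh6 (SE 0.46, adjusted p = 0.0508, edgeR), and neither passed the test. With the replicate block mt-Co1 was called lower in Myh6-tg (log2 fold change -1.57, adjusted p = 0.0125, edgeR). It was called in 4 of the 20 alternative fits of the Myh6 comparison, and in 0 of the 6 that left out a heart.

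mt-Co2 took 1.34%, 1.42% and 1.41% of counts in EIIa-ctl and 1.32%, 1.24% and 1.17% in EIIa-tg. In Myh6-ctl it took 1.51%, 1.70% and 1.54%, and in Myh6-tg 0.772%, 0.810% and 0.670%. The gap between the nearest EIIa-ctl and EIIa-tg hearts was narrow, whereas the Myh6 groups stood far apart. mt-Co2 fell by 1.48 on the log2 scale in Myh6-tg (SE 0.33, adjusted p = 0.0214, edgeR), and its value in EIIa was -0.35 (SE 0.19, adjusted p = 0.231, edgeR).

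mt-Co3 had the largest fitted change of the 6 in Myh6-tg. Its share was 2.56%, 2.93% and 2.35% in Myh6-ctl and 0.950%, 1.17% and 0.969% in Myh6-tg, so that every Myh6-tg heart was at or under 1.17% and every other heart of the 12 at or above 1.91%. In EIIa the shares were 2.32%, 2.37% and 2.27% in controls and 2.105%, 2.198% and 1.91% in EIIa-tg. The decrease in Myh6-tg was 1.76 on the log2 scale (log2 fold change -1.76, SE 0.36, adjusted p = 0.0166, edgeR), and the EIIa value was -0.35 (SE 0.22, adjusted p = 0.285, edgeR).

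mt-Atp6 and mt-Atp8 encode subunits of the membrane part of ATP synthase, of which the mt-Atp6 protein forms the half-channels through which protons pass. mt-Atp6 took 2.04%, 1.93% and 1.98% of counts in EIIa-ctl and 1.67%, 1.86% and 1.67% in EIIa-tg. In the other model it took 2.27%, 2.56% and 1.95% in Myh6-ctl and 1.24%, 1.37% and 1.17% in Myh6-tg. The groups did not overlap in either model. mt-Atp6 fell by 1.26 on the log2 scale in Myh6-tg (SE 0.36, adjusted p = 0.0467, edgeR), and the EIIa value was -0.39 (SE 0.21, adjusted p = 0.223, edgeR).

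mt-Atp8, the shortest of the 6 at 204 bases, had the fewest counts in every heart. It took 0.4503%, 0.391% and 0.414% of counts in EIIa-ctl and 0.325%, 0.402% and 0.356% in EIIa-tg, where the groups overlapped. It took 0.518%, 0.444% and 0.488% in Myh6-ctl and 0.291%, 0.277% and 0.266% in Myh6-tg, where they did not. mt-Atp8 fell by 1.196 on the log2 scale in Myh6-tg (SE 0.27, adjusted p = 0.0218, edgeR). In EIIa its value of -0.41 (SE 0.17, adjusted p = 0.132, edgeR) had the lowest p of the 6, 0.0440 before adjustment, where 17.4% of all genes were lower with an unadjusted p under 0.05.

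In Myh6-tg against Myh6-ctl, 4 of the 6 genes passed an adjusted p of 0.05 in the main fit, which had no replicate block. All 4 were lower (mt-Co2, mt-Co3, mt-Atp6 and mt-Atp8), where 9.38% of the 15298 genes tested were called lower. None of the 6 met the study's thresholds of an adjusted p under 0.01 with a log2 fold change of 1 or more, which 2.05% of the genes met as lower. All 6 were lower at an unadjusted p under 0.05, as were 16.8% of all genes. The median log2 fold change of the 6 was -1.39 beside 0.03 over all genes tested. With TMM-scaled values, all 6 had every Myh6-tg heart below every Myh6-ctl heart, which held for 19.7% of all genes. In EIIa-tg against EIIa-ctl, 0 of the 6 were called where 8.3% of 14908 genes were called lower. In this edgeR fit 0 of the 6 met the study's thresholds, but so did 0% of all genes, so the count says nothing particular about the 6. With DESeq2, the study's own tool, 1.62% of genes met them as lower. All 6 values in EIIa were negative (median -0.37, against 0.02 over all genes), and all 6 had every EIIa-tg heart below every EIIa-ctl heart after TMM scaling, against 20.7% of all genes.

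**Figure D2:**
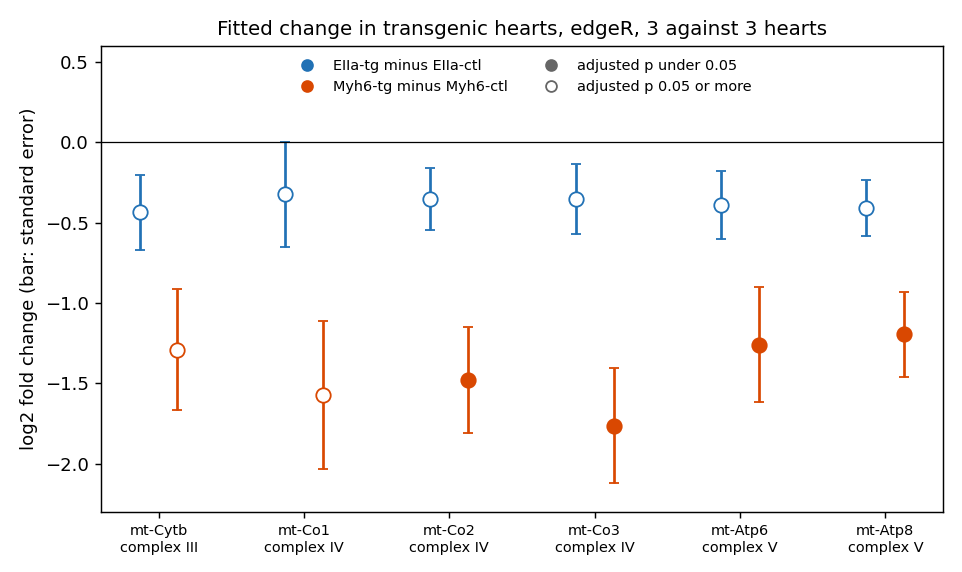
Fitted log2 fold change of each of the 6 genes in EIIa-tg (blue) and Myh6-tg (red) against the controls of the same model, 3 against 3 hearts, from edgeR. Bars are standard errors and filled symbols mark an adjusted p under 0.05, from fits without the replicate block. All 12 values are below 0, and the Myh6 values run from -1.196 to -1.76 while the EIIa values run from -0.32 to -0.44.

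All 6 genes passed the filter on low counts in every comparison, and the calls changed with the test. DESeq2, the tool named in the study's methods, called all 6 lower in Myh6 (adjusted p from 9.0e-11 for mt-Co3 to 1.7e-05 for mt-Atp6, with 11.6% of its genes called lower). All 6 also met the study's thresholds there, as did 7% of its genes. In EIIa, DESeq2 called 5 of the 6 lower, where it called 10.3% of genes, and mt-Co1 had an adjusted p of 0.0633. There 0 of the 6 met the study's thresholds, which 1.62% of its genes met as lower. Hearts with the same replicate number deviated together in the Myh6 model. The labels do not state such a pairing, which was read from these same counts. With the replicate number as a block, edgeR called all 6 lower in Myh6 at adjusted p values of 0.00664 to 0.0173 (11.2% of all genes lower), and mt-Co2 and mt-Co3 met the study's thresholds (3.6% of all genes). Leaving out Myh6-ctl replicate 1 or 2, or Myh6-tg replicate 2 or 3, took the count to 0 of 6, with 2.58% to 5.73% of all genes called lower. Leaving out Myh6-ctl replicate 3 took it to 3 (5.98% of genes), as did leaving out Myh6-tg replicate 1 (13.9%). Leaving out EIIa-tg replicate 2 brought mt-Atp8 past the threshold in EIIa (13.8% of genes).

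Scaling changed the size of the values and not their sign. On total counts alone the 6 Myh6 values ran from -0.80 to -1.35, with all 6 called where 5.58% of genes were called lower, while the median over all genes moved up to 0.43. The EIIa values on total counts ran from -0.13 to -0.24, with the median of all genes at 0.21. Scaling on genes outside the mt- rows gave Myh6 values of -1.23 to -1.80. Replicate 1, which alone had Y-linked counts, showed the same direction as the others. The median same-numbered difference over the 6 genes in TMM-scaled CPM was -1.24 in replicate 1, -1.53 in replicate 2 and -1.42 in replicate 3 of Myh6, and -0.43, -0.15 and -0.54 in EIIa.

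The difference between the models was then tested in all 12 hearts. The Myh6 change minus the EIIa change was -1.41 for mt-Co3 (SE 0.37, adjusted p = 0.0541, edgeR), -1.25 for mt-Co1 (SE 0.48, adjusted p = 0.172, edgeR) and -1.13 for mt-Co2 (SE 0.33, adjusted p = 0.0844, edgeR). It was smaller for the complex V and III genes, at -0.87 for mt-Atp6, -0.86 for mt-Cytb and -0.79 for mt-Atp8, with adjusted p values of 0.149 to 0.249. So 0 of the 6 were called, with 2.27% of 15929 genes called lower, and 0 met the study's thresholds, with 0.339% of genes. All 6 had an unadjusted p under 0.05, as did 10.8% of genes in the lower direction. DESeq2 called all 6, against 4.92% of its genes, and with the replicate block mt-Co3 alone passed (adjusted p = 0.0445, edgeR, 2.36% of genes). That block gave same-numbered hearts of both models a shared effect. Nothing pairs hearts across the models, so it is not a paired test of their difference. The control groups differed little. Myh6-ctl minus EIIa-ctl ran from -0.01 for mt-Co1 to 0.20 for mt-Atp8, and none of the 6 was called, against 0.0334% of 14990 genes. The control comparison shares its hearts with the comparisons above.

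Per length, the levels of the 6 were set beside each other, with a limit for mt-Atp8 and mt-Atp6. These are carried on a shared mRNA, yet their mean FPKM in EIIa-ctl was 20131 for mt-Atp8 and 28593 for mt-Atp6. How reads in their overlap were counted is not known, so their places below hold only for the values as deposited. The deposited FPKM values were used, which in every heart were proportional to counts divided by annotated gene length. mt-Co1 stood highest in every group, at 85483 ± 4428 FPKM (SD, n = 3) in the EIIa controls and 78029 ± 6360 with the EIIa-Cre, and at 84744 ± 7731 in the Myh6 controls and 37730 ± 3845 after tamoxifen. mt-Cytb, mt-Co3 and mt-Atp6 took the next 3 places in EIIa-ctl, EIIa-tg and Myh6-ctl. Their order differed between these groups, with mt-Cytb first of the 3 in EIIa-ctl, second in EIIa-tg and last in Myh6-ctl, and the ranges of neighbours among them overlapped. mt-Atp8 and mt-Co2 came last in those groups and their ranges overlapped too. In Myh6-tg mt-Co3 was no longer among the next 3, with mt-Atp6 at 18152 ± 1435, mt-Cytb at 16687 ± 1807, mt-Atp8 at 13371 ± 591, mt-Co3 at 12886 ± 1479 and mt-Co2 at 10786 ± 1028. There mt-Co3 lay below mt-Atp6 and mt-Cytb in all 3 hearts, and its range overlapped that of mt-Atp8.

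This shift could be read within each heart, as a ratio of counts that no scaling between hearts can move. The ratio of mt-Atp6 to mt-Co3, neighbours on the same precursor whose junction is printed above, was 0.884, 0.872 and 0.831 in Myh6-ctl and 1.31, 1.17 and 1.203 in Myh6-tg. It was 0.883, 0.816 and 0.871 in EIIa-ctl and 0.794, 0.846 and 0.871 in EIIa-tg. The 3 Myh6-tg hearts thus stood above 1 and the other 9 below it. The change in Myh6 was 0.51 on the log2 scale, without overlap (exact permutation test, two-sided, p = 0.1, the smallest that 3 against 3 hearts allow, 0.167 adjusted over the 15 pairs of members). In EIIa it was -0.03 with overlap (exact permutation p = 0.6).

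mt-Co3 was also low beside mt-Cytb in the Myh6-tg hearts. The ratio of mt-Co3 to mt-Cytb was 0.708, 0.766 and 0.704 in Myh6-ctl and 0.456, 0.569 and 0.570 in Myh6-tg, and Myh6-tg replicate 1 was the lowest. The ratio of mt-Co1 to mt-Cytb was 3.71 ± 0.24 (SD, n = 3) in Myh6-ctl and 3.06 ± 0.07 in Myh6-tg, but 3.87 ± 0.10 in EIIa-ctl and 4.18 ± 0.27 in EIIa-tg, so its change had opposite signs in the models (-0.28 in Myh6 and 0.11 in EIIa on the log2 scale, each with no overlap between groups and each with an exact permutation p of 0.1). Of the 15 pairs of members, 9 had ratios that did not overlap between the Myh6 groups and 2 had ratios that did not overlap between the EIIa groups. The pairs reuse the same 6 genes, and the share for pairs of other genes was not computed, so these counts have no background to be read against. No pair had an adjusted p under 0.05, which this number of hearts cannot reach. As a share of the 6, mt-Co1 went from 55.8% ± 1.9 in Myh6-ctl to 53.0% ± 0.7 in Myh6-tg and mt-Co3 from 10.9% ± 0.7 to 9.20% ± 0.83. mt-Cytb went from 15.1% ± 0.5 to 17.4% ± 0.6, mt-Atp6 from 9.44% ± 0.68 to 11.3% ± 0.4 and mt-Atp8 from 2.03% ± 0.24 to 2.49% ± 0.18, while mt-Co2 was at 6.66% ± 0.53 and 6.71% ± 0.02.

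mt-Atp8 and mt-Atp6, which overlap and are carried on a shared mRNA, had ratios that overlapped between groups. mt-Atp8 to mt-Atp6 was 0.2203, 0.203 and 0.209 in EIIa-ctl and 0.194, 0.216 and 0.214 in EIIa-tg. It was 0.228, 0.174 and 0.2495 in the Myh6 controls, and 0.234, 0.202 and 0.228 in Myh6-tg. The groups overlapped in both models, and the log2 change was -0.02 in EIIa (exact permutation p = 0.8) and 0.04 in Myh6 (exact permutation p = 0.9). The widest spread was among the Myh6-ctl hearts.

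**Figure D3:**
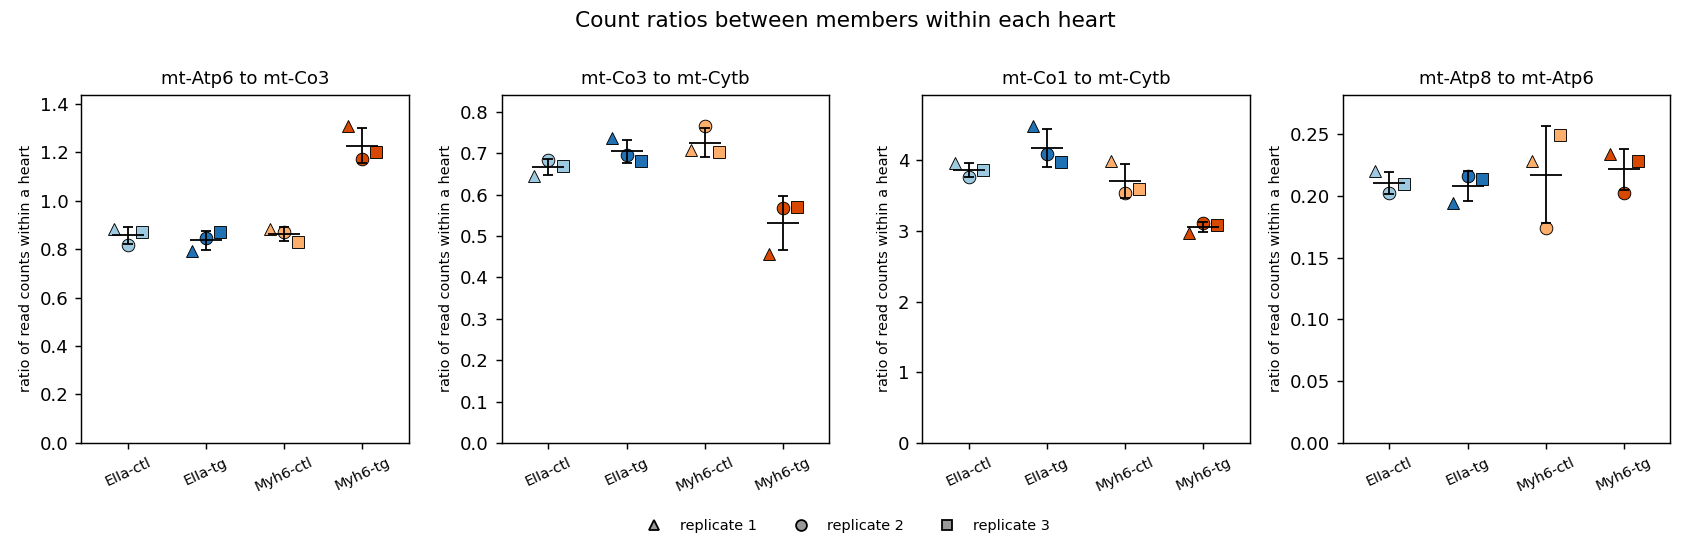
Ratios of read counts between pairs of the 6 transcripts within each heart (vertical axes from 0), by group, with symbols for hearts and lines and bars for mean and SD of 3 hearts. mt-Atp6 to mt-Co3 went from 0.863 in Myh6-ctl to 1.23 in Myh6-tg on average, mt-Co3 to mt-Cytb went from 0.726 to 0.532, and mt-Atp8 to mt-Atp6 overlapped between all groups.

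The 7 mitochondrial genes of complex I, which is not covered by the 6 members, moved in the same direction. In Myh6-tg, 5 of 7 were called lower (9.38% of all genes), and the log2 fold changes of the 7 ran from -1.19 to -1.88. mt-Nd3 (-1.88, SE 0.26, adjusted p = 0.00522, edgeR) met the study's thresholds, as did 2.05% of all genes as lower. mt-Nd2 had -1.68 (adjusted p = 0.0213, edgeR), near the -1.76 of mt-Co3. In EIIa-tg 1 of 7 was called lower (8.3% of all genes), mt-Nd4l (-0.64, SE 0.17, adjusted p = 0.0384, edgeR), with a range of -0.35 to -0.64. The counts of the 6 members relative to the 7 were 1.87, 1.98 and 2.14 in Myh6-ctl and 1.81, 1.84 and 1.83 in Myh6-tg, and 1.89, 1.95 and 1.90 in EIIa-ctl and 2.06, 2.05 and 2.02 in EIIa-tg. The members thus took a larger share against complex I in every EIIa-tg heart and a smaller one in every Myh6-tg heart than in the controls of that model.

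The nuclear partners of the 6 subunits were read from lists of genes for each complex. Of the 10 nuclear genes listed for complex III, which include cytochrome c, 6 were called lower in Myh6-tg (median log2 fold change -1.18), among them Uqcr11 (-1.26, adjusted p = 0.0157), Uqcrq (-1.24, adjusted p = 0.0233) and Uqcrc1 (-1.21, adjusted p = 0.0276). In EIIa-tg 1 of the 10 was called, Uqcrfs1, the Rieske iron-sulfur protein (-0.58, SE 0.16, adjusted p = 0.0403), and Cyc1, cytochrome c1, had -0.53 (adjusted p = 0.0602). These p-values and those given for other genes below are from the same edgeR fits without the replicate block, in which 9.38% (Myh6) and 8.3% (EIIa) of genes were called lower. The median of the list sat close to mt-Cytb in both models (-1.18 beside -1.29, and -0.43 beside -0.44).

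Of 17 nuclear complex IV genes, 7 were called lower in Myh6-tg (median -0.91) and 1 in EIIa-tg (median -0.20). The genes with the lowest p in Myh6-tg encode the muscle and heart forms of their subunits. Cox7a1 fell by 3.08 on the log2 scale (SE 0.29, adjusted p = 0.00184), Cox8b by 2.27 (SE 0.30, adjusted p = 0.00496) and Cox6a2 by 1.76 (SE 0.34, adjusted p = 0.0147). Cox7a1 was also the gene called in EIIa-tg (-0.84, SE 0.20, adjusted p = 0.0318), where its level went from 54.1 to 67.2 CPM in controls to 30.3 to 50.1 CPM. Of the 18 complex V genes tested, 10 were called lower in Myh6-tg (median -1.10) and 1 in EIIa-tg (median -0.22). Atp5g1, one of the genes for the ring subunit c that turns against the mt-Atp6 protein, had -1.78 in Myh6 (SE 0.33, adjusted p = 0.0128) and -0.77 in EIIa (SE 0.19, adjusted p = 0.0316). Atp5e (-1.41, adjusted p = 0.0124) and Usmg5 (-1.16, adjusted p = 0.0132) were lower in Myh6-tg.

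**Figure D4:**
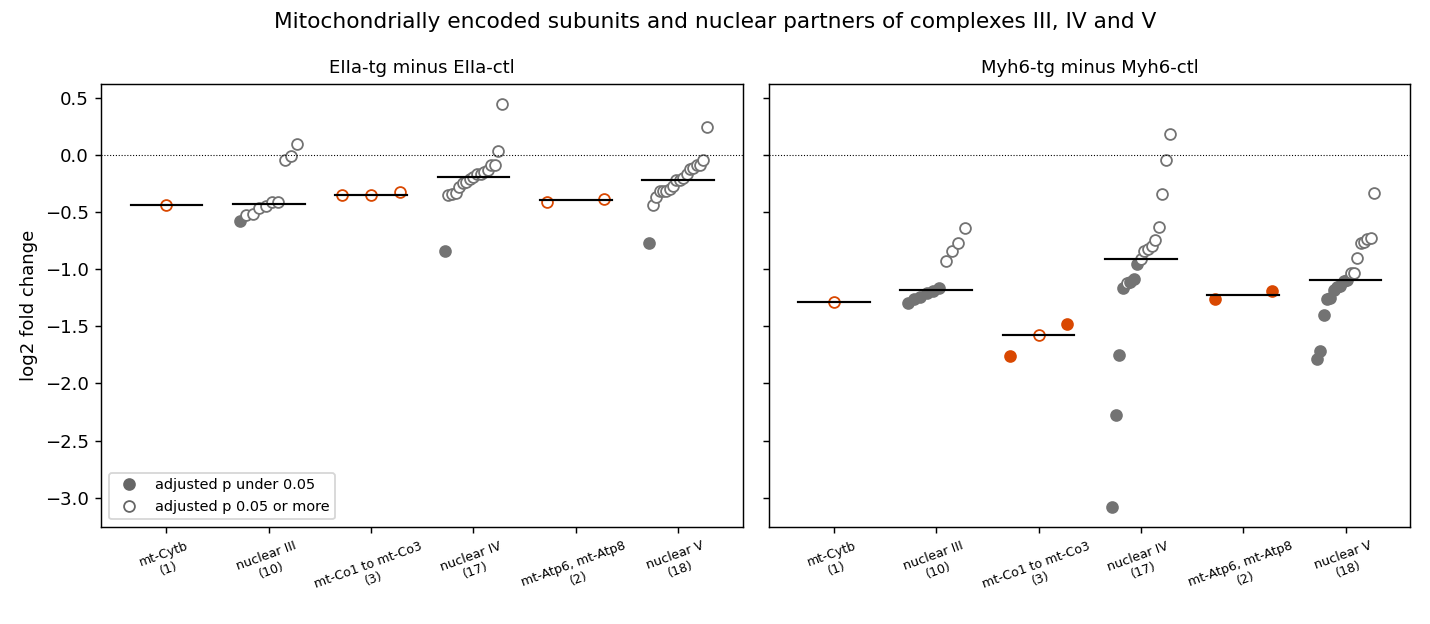
Log2 fold changes of the 6 mitochondrially encoded genes (red) and of the nuclear genes of the same complexes (grey) in EIIa-tg (left) and Myh6-tg (right), each point a gene, filled where the adjusted p was under 0.05, with a line at the median and the number of genes under each group. In Myh6-tg the median of the 3 mt-Co genes (-1.57) lay below that of the nuclear complex IV genes (-0.91), and complexes III and V had closer medians. The fits had no replicate block.

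The balance between the genomes was followed within each heart as the mean TMM-scaled log2 CPM of the members minus that of their nuclear partners. Over complexes III to V it was 7.27, 6.91 and 7.16 in Myh6-ctl and 6.66, 6.77 and 6.81 in Myh6-tg, without overlap, and 7.04, 6.74 and 6.72 in EIIa-ctl and 6.62, 6.75 and 6.72 in EIIa-tg, with overlap. By complex, complex IV differed the most in Myh6, with 8.80, 8.44 and 8.70 in controls and 8.09, 8.08 and 8.03 in Myh6-tg. Complex III went from 6.93 to 7.13 in controls to 6.72 to 6.89, without overlap, and complex V from 5.12 to 5.59 to 5.07 to 5.40, with overlap. The difference was thus smaller in every Myh6-tg heart than in every Myh6-ctl heart for complexes III and IV.

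Factors that make, process and assemble the members' products were read from further lists. Of 17 transcription and replication factors of mitochondrial DNA, 6 were called lower in Myh6-tg and 3 in EIIa-tg. Tfam, which packages mitochondrial DNA and starts its transcription, did not pass in either model (log2 fold change -0.50, adjusted p = 0.149 in Myh6, and -0.04, adjusted p = 0.805 in EIIa). Polrmt, the mitochondrial RNA polymerase, fell in Myh6-tg (-0.64, SE 0.18, adjusted p = 0.0438) and had -0.21 in EIIa (adjusted p = 0.335). Mgme1, an exonuclease of mitochondrial DNA replication, had -1.48 in Myh6 (adjusted p = 0.00532), Polg, the DNA polymerase, -0.94 (adjusted p = 0.0111), and Mterf2 -1.74 (adjusted p = 0.0159). In EIIa-tg the lowest p values of the list belonged to Tfb2m, which acts with the RNA polymerase at promoters (-0.66, adjusted p = 0.0291), and Mterf2 (-1.13, adjusted p = 0.0326).

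Of 21 RNA processing and stability factors tested, 7 were called lower in Myh6-tg and 10 in EIIa-tg, and none higher. Lrpprc, which binds and stabilises mitochondrial mRNAs, went from 132 to 168 CPM in EIIa-ctl to 88.7 to 115 in EIIa-tg, and from 113 to 145 CPM in Myh6-ctl to 47.3 to 61.2 in Myh6-tg. It fell by 0.77 on the log2 scale in EIIa-tg (SE 0.17, adjusted p = 0.0254) and by 1.70 in Myh6-tg (SE 0.22, adjusted p = 0.00461). Its partner Slirp did not pass (-0.12, adjusted p = 0.621, and -0.28, adjusted p = 0.612). Ptcd3, a protein of the mitochondrial ribosome, was lower in both (-0.79, adjusted p = 0.0186 in EIIa, and -1.55, adjusted p = 0.00561 in Myh6). Taco1, a translational activator of mt-Co1, fell by 1.18 on the log2 scale in EIIa-tg (SE 0.21, adjusted p = 0.0169) and 2.01 in Myh6-tg (SE 0.41, adjusted p = 0.0165). Supv3l1, an RNA helicase of mitochondrial RNA decay, was at -0.58 in EIIa (adjusted p = 0.0322) and -0.97 in Myh6 (adjusted p = 0.0119).

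Assembly factors gave 3 of 6 lower for complex III in each model, 5 of 21 in Myh6-tg and 6 of 21 in EIIa-tg for complex IV, and 4 of 5 in Myh6-tg and 2 of 5 in EIIa-tg for complex V. Cox19, a copper-related assembly factor of complex IV, was the one gene of these lists called higher (0.94 in EIIa, adjusted p = 0.0186). Uqcc1 (-1.70, adjusted p = 0.00445) and Lyrm7 (-2.04, adjusted p = 0.0109) of complex III, Cox14 (-1.27, adjusted p = 0.00986) and Cmc2 (-1.74, adjusted p = 0.0170) of complex IV, and Fmc1 (-1.60, adjusted p = 0.0156) and Tmem70 (-1.14, adjusted p = 0.0165) of complex V were lower in Myh6-tg. Uqcc1 (-0.87, adjusted p = 0.0208), Cmc2 (-0.87, adjusted p = 0.0179) and Atpaf2 of complex V (-0.64, adjusted p = 0.0217) were lower in EIIa-tg. Ppargc1a, a coactivator of nuclear genes for mitochondria, went from 57.4 to 148 CPM in Myh6-ctl to 19.0 to 28.7 in Myh6-tg (-2.39, SE 0.34, adjusted p = 0.00588) and was at -0.11 in EIIa (adjusted p = 0.673). Of the 8 biogenesis genes listed, 2 were called lower in each model.

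The 6 members varied together across the 12 hearts, with Pearson correlations of log2 CPM between 0.936 and 0.991 for their 15 pairs. The 7 complex I genes of the mitochondrial genome correlated with the mean of the 6 at 0.912 (mt-Nd4l) to 0.994 (mt-Nd1). Among the 15909 genes compared outside the mt- rows, those most like the mean of the 6 were Clpb (r = 0.990), NewGene_1278 (r = 0.986), Pkdcc (r = 0.986), Zmat1 (r = 0.984) and Rgs7bp (r = 0.982). These are descriptions over 12 hearts that share their groups and their scaling. Clpb, which encodes a mitochondrial disaggregase, went from 69.9 ± 4.7 TMM-scaled CPM (SD, n = 3) in Myh6-ctl to 38.5 ± 5.7 in Myh6-tg and from 68.4 ± 3.1 in EIIa-ctl to 57.7 ± 3.8 in EIIa-tg. NewGene_1278 is a locus that the authors named without a position in the files used, so its place in or outside the mitochondrial genome is not known here. It took 2.90% to 3.86% of counts in Myh6-ctl and 1.18% to 1.58% in Myh6-tg.

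Some markers of cell types differed between the groups as well, and others did not. The 10 cardiomyocyte markers summed to 32841 to 35493 CPM in Myh6-ctl and 14593 to 37870 in Myh6-tg, which overlapped, and to 37375 to 43080 in EIIa-ctl and 20596 to 34960 in EIIa-tg, which did not. None of the 10 was at 0. The sums joined markers that moved differently, since 4 of the 10 were called lower in Myh6-tg (Myh6, Myl2, Myl3 and Tnni3, with log2 fold changes of -1.97 to -2.60) while Tnnt2, Tnnc1 and Ttn had 0.44, 0.03 and 0.03 and were not called. In EIIa-tg 2 of the 10 were called lower, Myl3 (-0.84) and Ryr2 (-1.05). The 8 endothelial markers summed to 976 to 1178 CPM in EIIa-ctl and 917 to 969 in EIIa-tg, without overlap, with 3 of 8 called lower, and overlapped in the Myh6 model (588 to 1265 and 923 to 952), with 0 of 8 called. The 8 fibroblast markers summed to 1707 to 2619 CPM in Myh6-ctl and 3590 to 10591 in Myh6-tg, and to 1278 to 2027 in EIIa-ctl and 2718 to 4335 in EIIa-tg. Of these, 4 of 8 were called higher in Myh6-tg and 2 of 8 in EIIa-tg, while Lum averaged 221 CPM in Myh6-ctl and 171 in Myh6-tg. The 8 macrophage markers went from 401 to 649 CPM in EIIa-ctl to 974 to 1386 in EIIa-tg, and from 749 to 1476 in Myh6-ctl to 1237 to 2454 in Myh6-tg, the latter with overlap. All 8 were called higher in EIIa-tg and 0 in Myh6-tg, where Adgre1 averaged 31.7 CPM in the controls and 26.6 in Myh6-tg. The 5 erythroid markers went from 1379 to 2450 CPM in EIIa-ctl to 218 to 1255 in EIIa-tg, and from 4307 to 8034 in Myh6-ctl to 2243 to 4492 in Myh6-tg, the latter with overlap. Of the 5, 1 was called lower in EIIa-tg and 3 in Myh6-tg. Of 6 smooth muscle and pericyte markers, 1 was called higher in EIIa-tg, and 1 higher and 1 lower in Myh6-tg. Of the lymphocyte markers, 0 of 6 tested were called in EIIa-tg and 1 of 8 was lower in Myh6-tg. Over all genes, 2527 of 14908 were called in either direction in EIIa and 2805 of 15298 in Myh6. The part of these cell types in the levels of the 6 transcripts was not tested.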

How the data were processed

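RNA of 12 mouse hearts was sequenced by the authors as paired-end reads and mapped to GRCm38 with HISAT2. The submitters' processing notes list HISAT2 2.0.4, StringTie 2.2.1 and DESeq2, and the builds GRCm39 and mm10. The counting program, its handling of overlapping genes and its strand setting are not given in the sources used here. The authors deposited whole-number counts per gene without normalization, and FPKM values, fragments scaled to gene length and library size. Groups came from the sample titles (the genotype labels of EIIa-tg replicates 2 and 3 differ from that of replicate 1).

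Positions and sequences came from GENCODE M21, whose identifiers matched all 6 genes. Counts were filtered with filterByExpr, given TMM factors and fitted by the quasi-likelihood functions glmQLFit and glmQLFTest of edgeR 4.0.16 in R 4.3.3, over all genes, in the 6 hearts of a comparison, or in 12 for the difference between models. The SE is the log2 fold change over the square root of the F statistic. P-values were adjusted by Benjamini and Hochberg's method. DESeq2 1.42.0 and limma 3.58.1, on log2(FPKM + 1) and log2(FPKM + 0.1) with FPKM of 0.5 or more in 3 hearts, were alternatives, as were other factors, filters and sets of hearts. Levels of listed genes and sums of markers are CPM on library totals. Same-numbered differences, group overlaps, genome balances and the levels of the genes most like the members are TMM-scaled, and correlations used TMM-scaled log2 CPM with a prior count of 2. Ratios of counts were tested by two-sided exact permutation. Scripts were tested on simulated data. Named partner genes were, per list, at most the 3 with the lowest p in Myh6 and the 2 with the lowest p in EIIa, plus Tfam, Polrmt, Lrpprc, Slirp and Ppargc1a. The members and lists were chosen with earlier results of these data known.

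Deviations from the group mean of same-numbered hearts correlated at 0.285, 0.184 and 0.173 in Myh6, each above 0.1. In EIIa these correlations were 0.0602, -0.0704 and -0.05, and numbers were taken as names. The replicate numbers were therefore tried as pairs of Myh6 hearts in a blocked fit, while the main fit had no block. The labels do not state this pairing, and it was read from the same counts that were then tested. Replicate 1 was also the only one with more than 2 Y-linked counts, so number and sex are tied there. The blocked p-values hold only if the pairing does. The labels call the replicates biological but name no animals, and p-values measure the spread between these samples. The smallest count of a member in a heart was 106023, so counting error was small beside the spread between hearts.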

Additional observations from a re-analysis of the deposited data

How the results depend on the processing

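All 6 genes kept a negative sign in EIIa, in Myh6 and in the difference between models under every alternative run. In EIIa, DESeq2 called 5 of 6 at an adjusted p of 0.05, and leaving out a heart gave 0 to 1. The median of the 6 moved to -0.18 on total counts and to -0.18 with limma on FPKM under both pseudocounts and without a filter. In Myh6 the count of 4 became 6 with DESeq2, on total counts and with the replicate block, as given above. It also became 6 with all 12 hearts in one fit (16.2% of all genes lower) and 5 with scaling to genes outside the mt- rows (9.84%). It became 3 with RLE in place of TMM factors (9.62%) and 3 without a filter on low counts (7.02%). With limma on FPKM it became 2 under both pseudocounts (6.95% and 6.94% of all genes lower), and 0 without a filter (3.87%). It became 0 with bias-adjusted quasi-likelihood (10.7% of all genes lower) and 1 in replicates 2 and 3 only (11% of all genes) (these last alternatives, and limma without a filter, were chosen after seeing the data), and 0 to 3 when a heart was left out. The median went from -1.39 to -0.98 on total counts and to -0.99 with limma on FPKM. At the study's thresholds the count of 0 in Myh6 became 6 with DESeq2 (7% of all genes), 6 with all 12 hearts in the fit (6.95%), 1 on total counts (1.37%) and 2 with the replicate block (3.6%). For the difference between models the count of 0 became 6 with DESeq2 (4.92% of all genes lower), 3 on total counts (1.56%) and 1 with a CPM filter of 1 in 3 hearts (2.76%). It became 1 with the replicate block shared by both models (2.36%), 1 with limma on log2(FPKM + 1) (1.78%), and 0 to 2 when a heart was left out. DESeq2 put 3 at the study's thresholds (2.46%), and the median went from -1.002 to -0.78 on total counts and to -0.78 with limma on FPKM. The cause of these changes was not tested.

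Between the control groups mt-Co1 ran from -0.0995 to 0.141, reaching 0.059 without EIIa-ctl replicate 1, and mt-Cytb from -0.0596 to 0.187 when a heart was left out. The log2 change of mt-Atp8 to mt-Atp6 ran from -0.0472 to 0.0292 in EIIa and from -0.112 to 0.150 in Myh6 when a heart was left out, with the sign reversed without EIIa-ctl replicate 1 (0.0132), EIIa-tg replicate 1 (0.0292) or Myh6-ctl replicate 2 (-0.112). With the replicate block, which in EIIa had no support from the hearts, mt-Atp8 in EIIa was at -0.41 (adjusted p = 0.286, edgeR), 0 of 6 were called in EIIa and the control comparison had no call. Bulk hearts and 3 animals a group limit these results, and with the strand setting not given, antisense reads cannot be told apart.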
